A study of Bos taurus with 8 samples.

Results

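VNN1 and VNN2 encode the vanins of cattle. They were selected by gene symbol in the probe annotation of the array, which held 1 probe for each (EMBV3_19268 for VNN1 and EMBV3_23174 for VNN2), 2 genes of the 15229 gene symbols on the array. Both probes passed the filter on dim probes, and both were above background on 8 of 8 arrays in each group. Granulosa cells, which surround the oocyte and make oestradiol, were aspirated from dominant follicles of over 9 mm in Holstein cows at 60 days postpartum, 42 h after 1 PG injection, and their RNA was amplified and hybridised to 2-colour arrays. The cows had been classed by their blood beta-hydroxybutyrate (BHB), a ketone body, as BHBH (high BHB, negative energy balance severe) or BHBL (low BHB, negative energy balance mild). Each group held 12 cows in 4 pools of 3, so no value belongs to a single cow. One pool of each group shared an array, and each such pool pair was hybridised again with the dyes exchanged. BHBH was in Cy5 on slide 289 and BHBL on slide 288, so dye and slide coincide. A ratio below is the log2 of BHBH divided by BHBL, the mean of both arrays of a pool pair, with n = 4 pool pairs.

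Vanins are enzymes, pantetheinases, that split pantetheine into pantothenic acid (vitamin B5) and cysteamine. Pantothenic acid is the precursor from which cells make coenzyme A, the carrier of acyl groups in fatty acid and ketone body metabolism, and cysteamine feeds thiol and taurine metabolism. VNN1 is held at the cell surface by a lipid (GPI) anchor, and in mouse liver it is a target of the fasting-responsive nuclear receptor PPARA. In humans, the VNN2 protein is also known as GPI-80, a surface molecule of neutrophils that takes part in their adhesion and migration. A related enzyme is biotinidase (BTD), which releases the vitamin biotin.

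The 4 arrays of slide 289 and the 4 of slide 288 had median spot intensities of 154 to 427 over all probes and both channels, and 35555 to 37685 of the 43794 probes were above background on an array. The 12 granulosa markers were all measured and above background in both groups on 8 of 8 arrays. Markers of other cells were present as well, above background on 8 of 8 arrays in both groups for 9 of 9 macrophage and 9 of 9 theca and stroma markers. In such bulk RNA, fewer cells of a type and less RNA per cell cannot be told apart. By limma on the 4 pool pairs, 0 of 32407 features passed adjusted p under 0.05 (0% higher and 0% lower in BHBH), and 1664 (5.13%) had an unadjusted p under 0.05. With both arrays of each pair in the fit and the area number as a replicate block, 98 features passed, 3 higher and 95 lower, and neither vanin was among them.

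VNN1 differed widely between pools of the same group. Its spot read 13021, 1488, 14507 and 1913 median intensity units in BHBH pools 1 to 4 on slide 289, against 24868, 47735, 4977 and 62552 in BHBL pools 1 to 4. With the dyes exchanged on slide 288 the readings were 17830, 1730, 21758 and 2375 in BHBH and 17655, 40672, 3617 and 52939 in BHBL. Pools 2 and 4 of BHBH were thus low and pools 2 and 4 of BHBL high on both slides, while pool 3 stood the other way round. Local background around these spots was 24 to 377.

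After normalisation, the VNN1 level (log2 intensity) was 14, 10.49, 14.11 and 10.93 in BHBH pools 1 to 4 and 14.40, 15.37, 11.94 and 15.88 in BHBL pools 1 to 4. The groups overlapped, since BHBL pool 3 lay below BHBH pools 1 and 3. In order from high to low the pools were BHBL 4, BHBL 2, BHBL 1, BHBH 3, BHBH 1, BHBL 3, BHBH 4 and BHBH 2. Only the neighbours BHBH 3 and BHBH 1 lay closer (0.11) than the arrays of one pool did. The whole range was 42.1-fold, with 12.3-fold among the BHBH pools and 15.4-fold among the BHBL pools.

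VNN2 was also variable, but other pools stood out. The spot read 13971, 8776, 1981 and 8767 in BHBH pools 1 to 4 on slide 289, against 17014, the ceiling of the scanner, 62846 and 12477 in BHBL pools 1 to 4. On slide 288 it read 18687, 7337, 2149 and 10510 in BHBH and 13374, 65193, 50717 and 8572 in BHBL. BHBL pools 2 and 3 were the high pools and BHBH pool 3 the low one on both slides. The spot of BHBL pool 2 was saturated on 1 of 8 arrays, and read close to the ceiling on the other, so the level of that pool, and each fold against it, is limited from above. Local background was 34 to 1008.

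Normalised VNN2 levels were 14.10, 12.93, 10.98 and 13.12 in BHBH pools 1 to 4 and 13.94, 16.07, 15.70 and 13.40 in BHBL pools 1 to 4. The groups overlapped here too, since BHBH pool 1 lay above BHBL pools 1 and 4. In order from high to low the pools were BHBL 2, BHBL 3, BHBH 1, BHBL 1, BHBL 4, BHBH 4, BHBH 2 and BHBH 3. The gaps between BHBH 1 and BHBL 1 (0.16), BHBL 4 and BHBH 4 (0.28), and BHBH 4 and BHBH 2 (0.19) were smaller than the gap between the arrays of a pool. The range over all pools was 33.9-fold, with 8.69-fold among BHBH and 6.34-fold among BHBL pools.

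**Figure D1:**
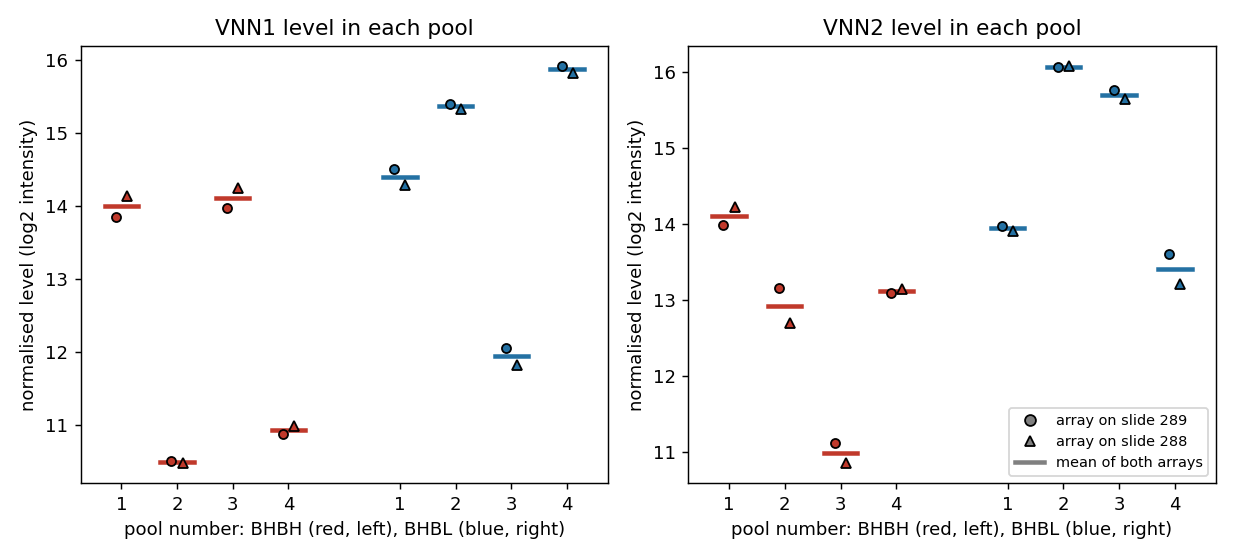
Normalised levels (log2 intensity, y axis) of VNN1 (left) and VNN2 (right) in BHBH pools 1 to 4 (red) and BHBL pools 1 to 4 (blue). Circles are arrays on slide 289, triangles arrays on slide 288, and bars their mean. VNN1 runs from 10.49 in BHBH pool 2 to 15.88 in BHBL pool 4, VNN2 from 10.98 in BHBH pool 3 to 16.07 in BHBL pool 2, and both arrays of a pool lie close together.

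This spread between pools was far larger than the error of the array. The SD over the 8 pools was 2.02 for VNN1 and 1.61 for VNN2, against an SD between arrays of the same pool of 0.13 and 0.18 (log2 scale). The median feature had 0.22 over the pools and 0.16 between arrays. An SD over pools at least as large as that of VNN1 was seen in 245 of 32407 features (0.756%), and as large as that of VNN2 in 545 (1.68%). The difference between the groups rests on 4 pools each.

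The ratio of VNN1 was -0.40, -4.88, 2.17 and -4.95 in pool pairs 1 to 4. BHBH was 29.5-fold lower in pair 2 and 31.0-fold lower in pair 4, and 4.49-fold higher in pair 3. The 2 arrays of each pair gave the same sign in all pairs, at -0.66 and -0.14 for pair 1, -4.90 and -4.86 for pair 2, 1.92 and 2.42 for pair 3, and -5.06 and -4.85 for pair 4. Among the 32407 features VNN1 ranked 10 from the lowest ratio in pair 2 and 5 from the lowest in pair 4, but 34 from the highest in pair 3.

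The ratio of VNN2 was 0.16, -3.14, -4.71 and -0.28 in the same pairs. BHBH was 8.82-fold lower in pair 2 and 26.2-fold lower in pair 3, where VNN2 ranked 138 and 12 from the lowest of all features. The fold and rank in pair 2 are limited by the saturated spot of BHBL pool 2. On slide 289 the VNN2 spot of BHBL pool 3 (62846) and the VNN1 spot of BHBL pool 4 (62552) also read near the ceiling, though not saturated. Both arrays gave -2.90 and -3.38 in pair 2 and -4.64 and -4.79 in pair 3. In pairs 1 and 4 the arrays lay between -0.51 and 0.32, at most 1.22-fold from equality when averaged. A ratio of at least 16-fold in at least 1 pair, a limit set after these values were seen, was met by 97 features (0.299%), both vanins among them.

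**Figure D2:**
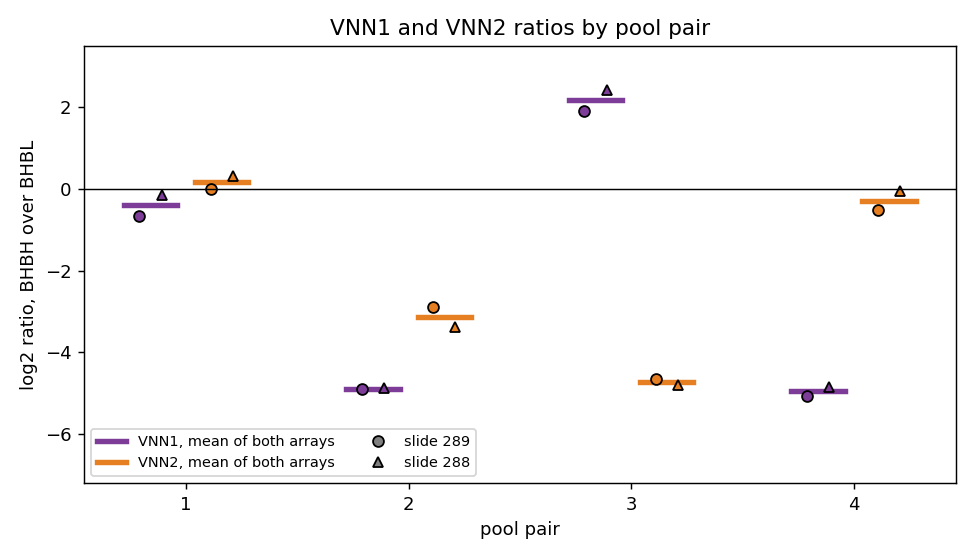
Log2 ratio of BHBH over BHBL (y axis) for VNN1 (purple) and VNN2 (orange) in pool pairs 1 to 4 (x axis). Circles are slide 289, triangles slide 288 and bars the mean of both. Both genes are lower in BHBH in pair 2 (-4.88 and -3.14), only VNN2 in pair 3 (-4.71 against 2.17), and VNN1 by far more in pair 4 (-4.95 against -0.28).

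Averaged over the pairs, VNN1 was at -2.02 ± 1.38 (SE, n = 4), that is 4.05-fold lower in BHBH, with a 95% interval of -5.62 to 1.58. VNN2 was at -1.99 ± 0.92 (SE, n = 4), 3.98-fold lower, with a 95% interval of -4.38 to 0.40. Neither passed the test in limma over all features, with adjusted p = 0.918 for VNN1 (unadjusted p = 0.207) and adjusted p = 0.915 for VNN2 (unadjusted p = 0.0845). Each was lower in 3 of 4 pairs and on 6 of 8 arrays, where 31.8% of all features were lower in at least 3 pairs. Mean levels were 12.38 ± 1.94 (SD) in BHBH and 14.40 ± 1.75 in BHBL for VNN1, and 12.78 ± 1.31 and 14.78 ± 1.30 for VNN2, with n = 4 pools each. An exact two-sided permutation test of 4 against 4 pools gave p = 0.171 for VNN1 and p = 0.0857 for VNN2, where the design allows no p below 0.0286. An exact sign-flip permutation test over the pairs gave p = 0.375 and p = 0.25, with a smallest possible p of 1/8. The lower averages are thus within the spread between pool pairs.

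The averages were nearly equal, yet the ratios of the vanins differed from pair to pair. VNN2 minus VNN1 was 0.56, 1.74, -6.88 and 4.67 in pairs 1 to 4, with a mean of 0.02 ± 2.46 (SE, n = 4) and p = 1 in an exact sign-flip permutation test. Each average also leaned on particular pairs. Without pair 2 or pair 4 the VNN1 average was -1.06 or -1.04, and without pair 3 it was -3.41. The VNN2 average was -1.09 without pair 3 and -2.71 without pair 1. Across the 8 pools the levels of the 2 genes had Pearson r = 0.14, a description only, since pools of a pair share arrays.

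The genes beside the vanins on chromosome 9 (order of the RefSeq gene table, assembly ARS-UCD2.0) had smaller ratios. The trace amine receptor genes TAAR2 and TAAR1, on the side of VNN1, were at -0.03 ± 0.08 and -0.01 ± 0.09 (SE, n = 4). Beyond VNN2, the ribosomal protein gene RPS12 was at -0.40 ± 0.28 and EYA4, a transcriptional coactivator gene, at 0.12 ± 0.11. RPS12 had 0.59, -0.74, -1.005 and -0.44 in pairs 1 to 4. The probes of TAAR2, TAAR1 and EYA4 were dim, with mean BHBL levels of 7.54, 7.17 and 7.36 (log2 intensity), against 13.85 for RPS12. So dim a level leaves little room for a lower value in BHBH. TAAR3 and SLC18B1 were not measured. No build is given for the array, so no coordinates are printed.

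Genes whose levels ran most like those of VNN1 over the 8 pools were sought among 803 other named features with an SD of at least 1 over the pools (4.53% of all features, named or not, had such an SD). The 8 closest had r of 0.76 to 0.89, where the central 90% of r over 32405 other features ran from -0.58 to 0.58. They were CYR61, a matricellular protein gene of the CCN family, UBD, a ubiquitin-like modifier induced by interferon and TNF, MXRA8, SOX4, GATM, the first enzyme of creatine synthesis, the matrix metalloproteinase MMP11, LRRC17 and IRF8, a transcription factor of the myeloid and B cell lines. CYR61 was at 0.79, -2.51, -0.22 and -3.29 in pairs 1 to 4, UBD at 0.66, -2.95, 0.34 and -1.96, and MXRA8 at -0.53, -2.14, 1.48 and -3.33. These 3 genes had their lowest levels in BHBH pools 2 and 4, and MXRA8 shared each sign with VNN1. The averages of the 8 genes lay between -1.47 and -0.40, with adjusted p of 0.915 to 0.983 in limma. The 8 were picked for the highest r among features with a large SD. Their r beside the central 90% of all features is thus a description and no test. Most opposite were SRGN, which encodes the proteoglycan of secretory granules, C6H4ORF31 and GFRA1, with r of -0.72 to -0.57.

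The 8 genes closest to VNN2 had higher r, 0.91 to 0.97, against -0.62 to 0.63 for the central 90% of other features. They were PPL (periplakin, a linker of keratin filaments to cell junctions), S100A9 and S100A8 (the subunits of the neutrophil protein calprotectin), PLK2, the amino acid transporter SLC6A14, WWC1, SERINC2 and the complement regulator C4BPA. PPL was at -1.27, -4.78, -6.23 and -1.05 in pairs 1 to 4 and S100A9 at -0.41, -3.21, -4.55 and -1.36. SLC6A14 was at -2.01, -4.73, -6.00 and -0.69 and was above background in BHBH on 7 of 8 arrays. As with VNN2, pairs 2 and 3 held the lowest ratios. Of the 8, however, 7 were lower in all 4 pairs, and in 6 the levels of BHBH and BHBL pools did not overlap (2.94% of all features), whereas those of VNN2 overlapped. These genes were chosen for their likeness to VNN2, so the r and the counts describe them and are no test. Their averages were -3.36 to -1.73 with adjusted p = 0.915 in limma. WWC1 was at -2.75 by its brightest probe, and 2 further probes averaged -1.05. NRP1, the ectonucleotidase gene ENPP1 and the receptor gene GPR85 ran most opposite (r of -0.77 to -0.66).

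**Figure D3:**
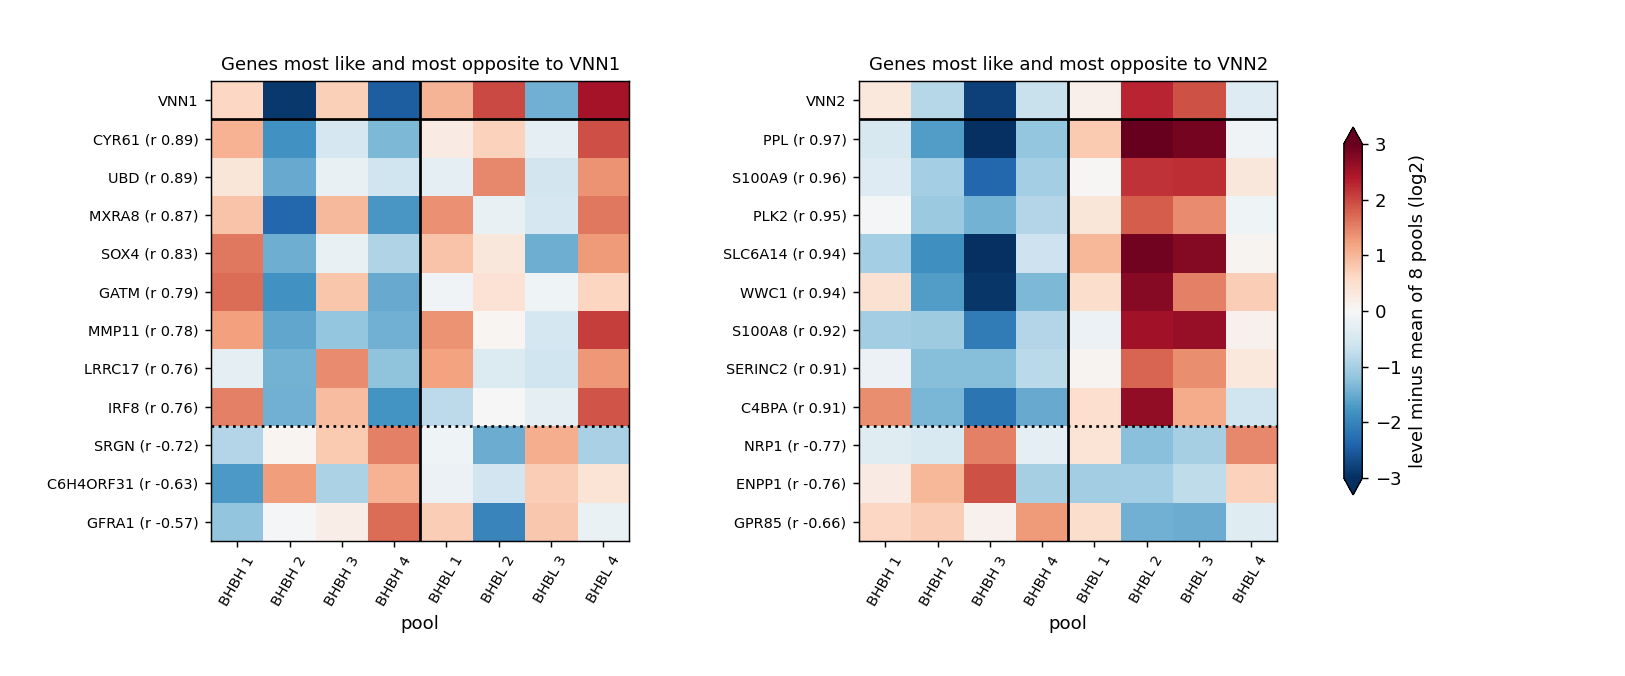
Levels of each gene in the 8 pools (columns) as the difference from its own mean over the pools (log2, colour scale ends at 3 in either direction). VNN1 (left) and VNN2 (right) stand above the 8 genes with the highest Pearson r and, under the dotted line, the 3 with the lowest. The genes below VNN2 are high in BHBL pools 2 and 3 (r of 0.91 to 0.97), although C4BPA is higher in BHBH pool 1 than in BHBL pool 3, while those below VNN1 are low in BHBH pools 2 and 4 (r of 0.76 to 0.89).

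BTD, the relative of the vanins, varied little. It was at -0.30, -0.12, -0.20 and 0.26 in pairs 1 to 4 and at -0.09 ± 0.12 on average (SE, n = 4; adjusted p = 0.955 in limma). The vanin family list thus had a median of -1.99 over its 3 measured members.

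Genes that take up pantothenic acid and make, move or break down coenzyme A had no common direction. Of 17 listed genes 14 were measured, 4 lower and 10 higher on average, with a median of 0.09 beside -0.01 for all features, of which 51.8% were lower. None passed adjusted p under 0.05 in limma, and 2 (ENPP3 and AASDHPPT) had an unadjusted p under 0.05, against 5.13% of all features. SLC5A6, the transporter of pantothenic acid and biotin, was at -0.43, 0.58, 0.45 and 0.08 in pairs 1 to 4. The pantothenate kinase genes PANK1, PANK3 and PANK4, for the first step of the synthesis, averaged -0.12 ± 0.12, -0.08 ± 0.20 and -0.16 ± 0.18. COASY, which carries out the last steps, was at 0.03 ± 0.09, and DCAKD, with a kinase domain related to that of COASY, at 0.12 ± 0.09. The DCAKD probe was dim, with a mean BHBL level of 7.19 (log2 intensity). AASDHPPT, which transfers the pantetheine arm of coenzyme A to proteins, was at 0.30 ± 0.10 (adjusted p = 0.915). That is its brightest probe, and 2 further probes of the gene averaged 0.08.

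The ectonucleotidase genes ENPP3 and ENPP1 had the widest ratios of that list. ENPP3 was at -1.80, -3.96, -4.29 and -1.11 in pairs 1 to 4 (-2.79 ± 0.62 SE, adjusted p = 0.915 in limma). BHBH and BHBL pools did not overlap for ENPP3 (2.94% of all features), which was above background in BHBH on 7 of 8 arrays. ENPP1 ran the other way in the first 3 pairs, with 1.28, 2.03, 2.66 and -1.68. Its levels in BHBL pools 1 to 3 were dim, at 7.10, 7.11 and 7.38 (log2 intensity). The ENPP1 probe was above background in BHBL on 7 of 8 arrays.

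Cysteamine and taurine genes had a median of -0.38 (4 of 7 measured, 3 lower and 1 higher, 0 passing the test). CDO1, cysteine dioxygenase, was at 0.05, -1.41, -1.88 and -0.60 in pairs 1 to 4 (-0.96 ± 0.34, adjusted p = 0.915), lowest in the pairs in which VNN2 was lowest. Its BHBH levels were dim, 7.39 to 7.71 (log2 intensity), which limits how low its ratios could be. FMO1, which oxidises hypotaurine to taurine, was at -2.85 in pair 2 and between -0.14 and 0.12 elsewhere. The FMO1 level was 9.91 in BHBL pool 2 but 7.11 to 7.51 in the other BHBL pools. So dim a level leaves little room for a lower value in BHBH. The taurine transporter gene SLC6A6, also dim with a mean BHBL level of 7.43, was at 0.11 ± 0.07. The 4 glutathione genes had a median of 0.10 (2 lower, 2 higher, 0 passing). GSR, glutathione reductase, was at 0.18, -1.61, -0.59 and -1.13 (-0.79 ± 0.31), GCLC, the catalytic subunit of the first enzyme of glutathione synthesis, at 0.47 ± 0.31, and GSS, which adds glycine, at 0.21 ± 0.10. Adjusted p in limma was 0.915 for GSR, 0.918 for GCLC and 0.915 for GSS. For GSS, 2 further probes averaged -0.02.

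**Figure D4:**
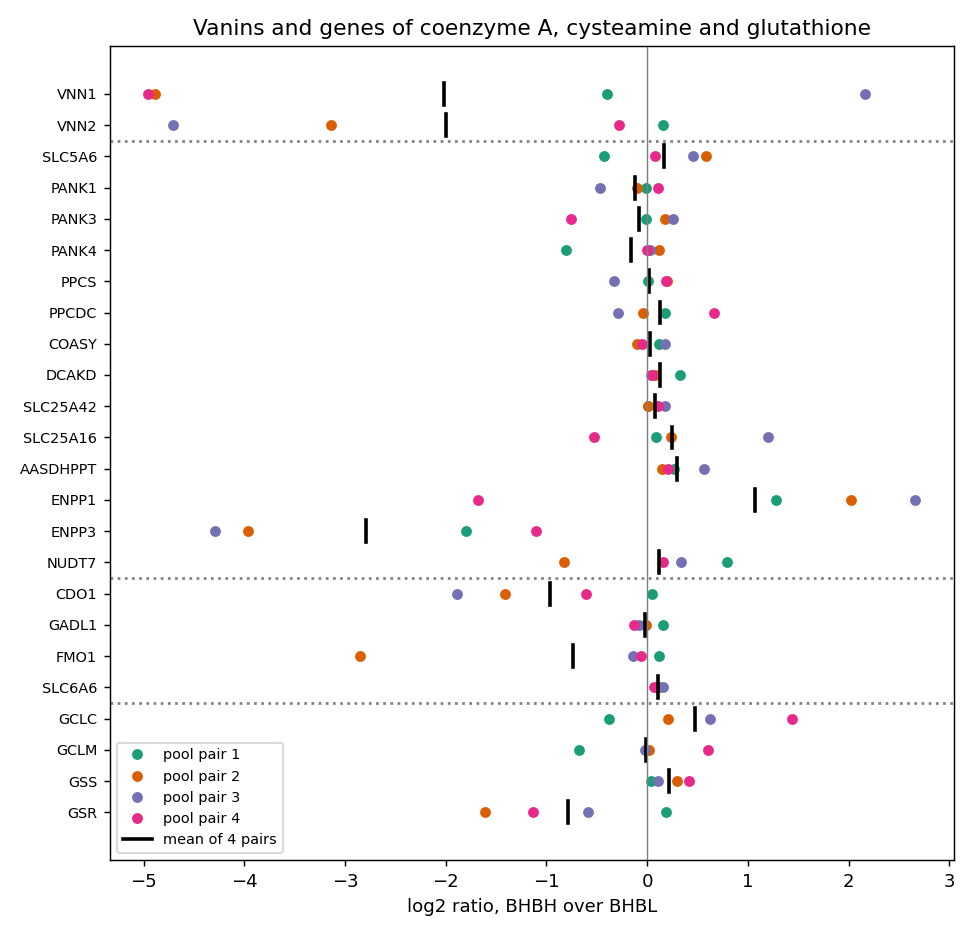
Log2 ratios of BHBH over BHBL (x axis) in pool pairs 1 to 4 (coloured points) with their mean (black bar). From the top, separated by dotted lines, are the vanins, 14 genes of pantothenate uptake and coenzyme A, 4 of cysteamine and taurine and 4 of glutathione synthesis. Beside the vanins, ENPP3, ENPP1 and FMO1 spread most between pairs.

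PPAR receptors and targets, among which VNN1 counts in mouse liver, had a median of -0.10 (11 of 13 measured, 8 lower and 3 higher, 0 passing the test). PPARA itself was at -0.26 ± 0.12 (adjusted p = 0.915 in limma), and its probe exceeded background on 1 BHBH array and 3 BHBL arrays of 8. RXRA, its partner receptor, was at -0.15 ± 0.10 and the liver factor gene CREB3L3 at 0.09 ± 0.07, with CREB3L3 above background on 6 BHBH and 4 BHBL arrays. PDK4 spread most between pairs in this list, with 0.80, 1.44, 1.57 and -4.69 in pairs 1 to 4 (r = 0.54 with VNN1). For PDK4, 2 further probes averaged -0.05. PPARG was at -0.997, 1.12, -0.40 and 1.19 (r = -0.48 with VNN1). The part of PPAR receptors in the VNN1 ratios was not tested. Genes of the LH surge response had a median of -0.08 (13 of 15 measured, 7 lower and 6 higher, 0 passing). PLAT, tissue plasminogen activator, was at -1.50 ± 0.21 (adjusted p = 0.841), the matrix proteoglycan gene VCAN at 0.92 ± 0.21 and the hyaluronan-binding TNFAIP6 at 0.48 ± 0.18, both at adjusted p = 0.915.

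Markers of other cell types were measured in the same pools. Neutrophil markers (11 of 13 measured, 8 lower) had medians of 0.15, -0.98, -0.49 and -0.44 in pairs 1 to 4, and 6 of the 11 were above background on 8 of 8 arrays in both groups. Their summed level was 4215 to 13405 intensity units in BHBH pools and 6709 to 87847 in BHBL pools. S100A8, already among the genes most like VNN2, was at -2.54 ± 0.75 and S100A9 at -2.38 ± 0.73, and LTF, lactoferrin, at -2.21 ± 0.60 with -0.63, -3.94, -1.32 and -2.96 in the pairs. The highest sum, 87847 in BHBL pool 2, was led by LTF at 15.98 and S100A9 at 13.45 (log2 intensity). It follows these bright genes and not the list as a whole. MPO and ELANE, which define neutrophil granules, were at -0.12 ± 0.11 and 0.03 ± 0.12, but the MPO probe exceeded background on 1 BHBH array and 4 BHBL arrays of 8, and the ELANE probe on 5 and 4. The neutrophil receptor genes CXCR1 and CXCR2 (IL8RB on the array) were at -0.11 ± 0.08 and -0.29 ± 0.88, with CXCR1 above background on 4 BHBH and 6 BHBL arrays. A further probe of CXCR2 was at 0.14. MMP9, a gelatinase gene, and the integrin gene ITGAM were higher in BHBH in pairs 2 and 3, where VNN2 was lowest. MMP9 was at 0.27, 3.67, 2.10 and -0.25 in pairs 1 to 4 (1.45 ± 0.71, r = -0.40 with VNN2). ITGAM was at 0.29 ± 0.52 (r = -0.51 with VNN2) and exceeded background on 5 BHBH and 2 BHBL arrays. MMP9 and ITGAM were the only members with a negative r. Over the 11 members r with VNN2 ran from -0.51 to 0.96 with a median of 0.52, and was 0.76 for MPO and 0.69 for CXCR2. The part of neutrophils in the VNN2 ratios was not tested.

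Epithelial markers were lower in BHBH in the pairs in which VNN2 was lower, and in the others as well. All 10 were measured and lower on average, with a list median of -2.66 and pair medians of -2.40, -3.15, -3.27 and -1.87. Their summed level was 6048 to 43381 in BHBH pools and 48719 to 145193 in BHBL pools, without overlap of the sums. Gene by gene, BHBH and BHBL pools did not overlap for 3 of the 10 (2.94% of all features). Of the 10 markers, 8 were above background on 8 of 8 arrays in both groups. WFDC2, AGR2 and CDH26 were at -2.67 ± 0.15, -3.10 ± 0.31 and -2.39 ± 0.27, with adjusted p of 0.407, 0.716 and 0.716 in limma. For each of these genes the levels of BHBH and BHBL pools overlapped. Over the pools the members had r of 0.40 to 0.87 with VNN2 and 0.24 to 0.40 with VNN1. This list holds genes that earlier results had shown to be lower, so its direction is no independent evidence, and its part in the vanin ratios was not tested.

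Red cell markers (5 of 6 measured, 4 lower, median -0.30) had pair medians of 0.41, -1.15, -0.88 and 0.27. HBB, beta-globin, was at 4.10, -4.98, -3.89 and 0.43, SLC4A1 at -0.11 ± 0.11 and AHSP at 0.15 ± 0.10. Their summed level was 1159 to 13064 in BHBH and 1345 to 16872 in BHBL, and 4 of the 5 were above background on 8 of 8 arrays in both groups. Over the pools the members had r of -0.44 (AHSP) to 0.81 (HBB) with VNN2, with a median of 0.71. The part of blood in the VNN2 ratios was not tested.

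For VNN1 the lymphocyte markers ran closest among the cell type lists (10 of 12 measured, 9 lower on average, median -0.27), with pair medians of 0.35, -0.35, 0.32 and -1.71. Their r with VNN1 had a median of 0.68, and the T cell genes CD3D (0.33, -0.45, 0.74 and -1.83 in pairs 1 to 4) and CD3E (0.38, -0.55, 0.28 and -2.34) had r of 0.83 and 0.71. In pairs 2 to 4 these ratios were smaller than those of VNN1, and in pair 1 they were of the opposite sign. The summed level of the list was 8254 to 13804 in BHBH and 9873 to 19861 in BHBL, and CD79A was above background on 2 and 3 of 8 arrays. The B cell gene MS4A1 was at -0.94 ± 0.69 and GZMA, granzyme A, at -0.10 ± 0.11. The part of lymphocytes in the VNN1 ratios was not tested.

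The other lists had the following values. Macrophage markers (9 of 11 measured, 3 lower, median 0.15) had pair medians of 1.32, 1.30, 1.25 and -3.05, with C1QC at -0.73 ± 0.46, C1QB at -0.69 ± 0.62 and CSF1R at 0.54 ± 0.71. General leukocyte markers (7 of 8 measured, 2 lower, median 0.26) had 2.09, 0.66, 0.66 and -2.36, with CORO1A at 0.68 ± 0.75, PTPRC at -0.34 ± 0.45 and FCER1G at 0.26 ± 0.48. Theca and stroma markers (9 of 9 measured, 8 lower, median -0.78) had 2.27, -1.24, -1.58 and -1.38, with LUM at -1.32 ± 0.42, CYP17A1 at -0.21 ± 0.08 and INSL3 at 0.23 ± 0.13. Endothelial markers (5 of 6 measured, 3 lower, median -0.03) had 0.05, -0.26, 0.06 and 0.09. CDH5, EMCN and TEK lay between -0.03 and 0.04, with EMCN above background on only 3 of 8 arrays in each group. The endothelial list was dim as a whole, with a summed level of 699 to 861 in BHBH and 721 to 859 in BHBL. Of its 5 markers, 1 was above background on 8 of 8 arrays in both groups, so its small ratios have little room to differ. Granulosa markers (12 of 12 measured, 3 lower, median 0.21) had -0.47, 0.53, 0.06 and 0.60, with FOXL2 at 0.24 ± 0.14, LHCGR at 0.46 ± 0.35 and INHA at 0.12 ± 0.09. A further probe of LHCGR was at 0.14. The INHA spot was saturated on 6 of 8 arrays in each group, which limits its ratio. No member of these lists or of the neutrophil, epithelial, red cell and lymphocyte lists passed adjusted p under 0.05 in limma.

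**Figure D5:**
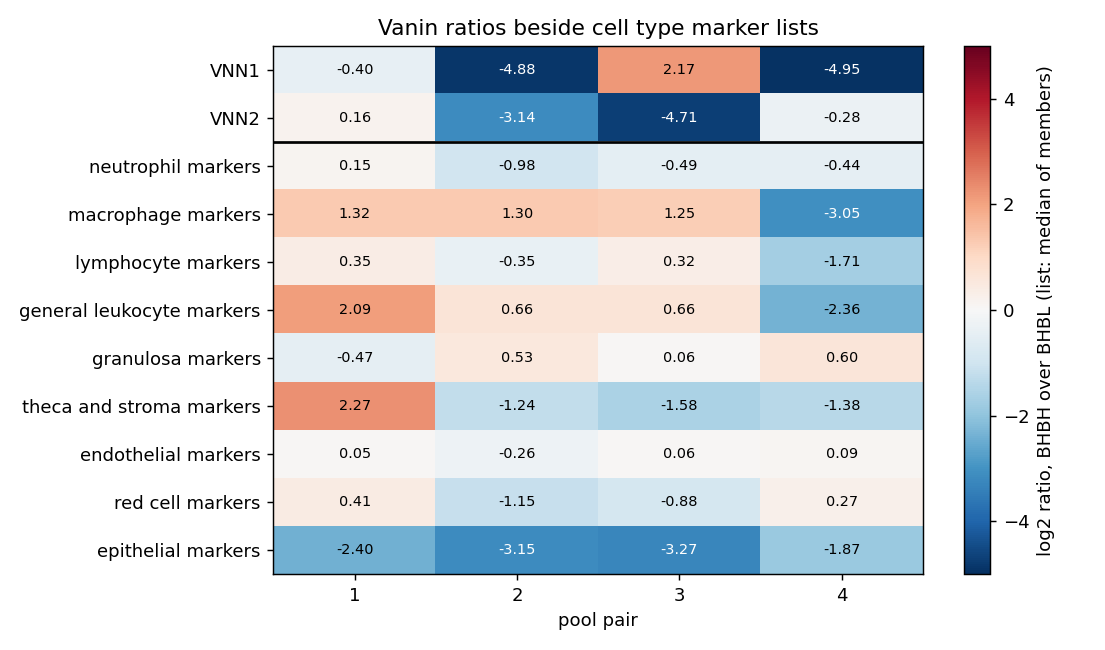
Log2 ratios of BHBH over BHBL of VNN1 and VNN2 and, under the black line, median ratios of 9 cell type marker lists, in pool pairs 1 to 4 (columns). In pairs 2 and 3, where VNN2 is at -3.14 and -4.71, the neutrophil, theca and stroma, red cell and epithelial medians are below 0. The macrophage and general leukocyte medians are above 0 in pairs 1 to 3, and the lymphocyte median in pairs 1 and 3, while VNN1 is above 0 in pair 3 (2.17).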

How the data were processed

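Granulosa cell RNA of 8 pools was measured on 8 two-channel arrays. The deposited scanner files give spot and local background intensity for Cy3 (532 nm) and Cy5 (635 nm), per the file headers. The deposited values hold log2 ratios made by the authors with limma, per the submitters' processing notes. Their background correction and normalisation were not given in the sources used here. They ran as BHBH over BHBL (r of 0.941 to 0.96 with the ratios computed here; medians of -0.0142 to 0.0396 per array) and served as an alternative.

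Median intensities were processed in R 4.3.3 with limma 3.58.1 (with data.table, version 1.17.8, and jsonlite, version 2.0.0) by normexp (offset 50) and loess with control spots at weight 0. Levels per channel were taken after Aquantile normalisation. Probes flagged on any array (103) were dropped, as were dim ones. A probe was kept if, on 4 or more of 8 arrays, Cy3 or Cy5 exceeded the 153 negative controls by 2 SD over their mean. Of 43794 probes, 21790 had 1 symbol, 0 several and 22004 none. The brightest probe stood for a gene, which gave 32407 features. The labels do not name pools, so the area on the slide was taken as the pool pair. With slide means subtracted, the same area on both slides gave r of 0.845 to 0.893 across features, other area combinations -0.52 to -0.03. Both arrays of a pair were averaged, which cancels dye and slide, and tested against 0 with limma and Benjamini-Hochberg adjustment. The number of pools and arrays limits the precision. The procedure was tested on simulated data.

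Members and 15 gene lists (127 of 147 genes measured) were chosen with earlier results of these data known. Named are VNN1, VNN2 and their relatives, up to 3 genes per list by unadjusted p, the 8 genes most and the 3 least like each vanin by r over the pools (SD of at least 1), and the nearest 3 protein-coding genes on either side. Other genes were chosen after their values were seen: SLC5A6, PANK1, PANK3, PANK4, COASY and ENPP1 in the coenzyme A list, and MPO, ELANE, MMP9, ITGAM, CXCR1, CXCR2, HBB, CD79A and CD3D among markers. So were PDK4 and PPARG in the PPAR list. Symbols are those of the array annotation, matched where needed through synonyms in the RefSeq table. Figures were drawn with matplotlib 3.10.9.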

Additional observations from a re-analysis of the deposited data

Results flagged for a closer look

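A single pool pair stood apart from the rest in 8 of 88 sets of 4 values, and chance gives about 1 in 20. None of the 6 groups of the vanins' own ratios or levels was among them. The median of the 3 measured vanin family genes was at -3.14 in pair 2 against -0.30 to -0.20 elsewhere. That median is the value of 1 gene, VNN2 in pairs 2 and 4 and BTD in pairs 1 and 3. It passes over VNN2 at -4.71 in pair 3 and VNN1 at -4.95 in pair 4, so it does not set pair 2 apart for the vanins. In pair 2 FMO1 was at -2.85 against -0.14 to 0.12, and the endothelial list median at -0.26 against 0.05 to 0.09. In pair 4 the macrophage list median was at -3.05 against 1.25 to 1.32, CSF1R at -2.14 against 1.35 to 1.55, and GZMA at 0.20 against -0.24 to -0.19. In pair 1 the theca and stroma list median was at 2.27 against -1.58 to -1.24, and DCAKD at 0.32 against 0.04 to 0.08. The DCAKD probe and the endothelial list were dim, so these small departures lie close to background.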

How the results depend on the processing

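Under 17 alternatives VNN1 stayed lower in BHBH (-3.41 to -1.04, adjusted p of 0.479 to 0.99998 in limma), as did VNN2 (-2.71 to -1.09, adjusted p of 0.292 to 0.99998), and neither passed the test. Both extremes of each ratio came from leaving out a pool pair. The lowest adjusted p of each gene came from the 8 arrays taken as separate ratios, which counts both arrays of a pair as replicates. Without 1 pair the lowest was 0.740 for VNN1 and 0.589 for VNN2. With the area as a replicate block the averages were the same, -2.02 and -1.99, with adjusted p of 0.836 and 0.491, and 98 features were called in place of 0. The arrays as separate ratios gave 165, and the other 15 alternatives gave 0. VNN2 minus VNN1 turned from 0.02 to -0.12 on slide 288 alone and ran from -1.52 to 2.33 without 1 pair. Mean pixel intensities gave VNN2 ratios of -2.93 and -4.45 in pairs 2 and 3, and the deposited ratios -2.93 and -4.43. For VNN1 in pairs 2 and 4 mean pixel intensities gave -4.75 and -4.57, and the deposited ratios -4.99 and -4.43, against -4.88 and -4.95 in the main fit. In pair 1 VNN2 was at 0.16, and at -0.0052 in the deposited ratios, which put it lower in BHBH in 4 of 4 pairs. The differences in level between the groups kept their sign under 7 alternatives each. With all pools the exact permutation p was 0.143 to 0.171 for VNN1 and 0.0857 to 0.114 for VNN2. Without 1 pool pair it was 0.1 to 0.5 for VNN1 and 0.1 to 0.3 for VNN2. With so few pools 0.1 is the smallest p possible, reached by VNN1 without pair 3 and by VNN2 without pair 1. The alternatives without 1 pool pair were chosen after seeing the data.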
